A study of Mus musculus with 8 samples.

Results

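The 7 genes of the histone H3 lysine 9 (H3K9) methylation machinery described here were followed in sorted leukaemia cells. They are the methyltransferase genes Suv39h1, Suv39h2, Setdb1, Ehmt1 and Ehmt2, the chromatin remodeller gene Atrx and the corepressor gene Trim28. Members were all probe sets of an Affymetrix array whose platform annotation gave 1 of these symbols and no other, which found 18 of 45101 probe sets. They covered 6 of the 7 genes, of 18193 genes named on the array, with 3 probe sets for Suv39h2, 3 for Setdb1, 1 for Ehmt1, 2 for Ehmt2, 7 for Atrx and 2 for Trim28. Suv39h1 was the only one of these symbols that no probe set carried alone in the annotation used, and it is not analysed here.

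Cells came from the spleens of 4 mice in which MLL-AF10, a fusion of the histone methyltransferase gene MLL with AF10, had caused acute myeloid leukaemia. To start the disease, c-kit+ stem and progenitor cells of the marrow had been transduced with a retrovirus, immortalised and given to sub-lethally irradiated, syngeneic recipients (strain CD57BL/6 as the labels spell it, age not given). Sorting on the surface receptor c-kit (CD117) split each spleen in a c-kit-high fraction, CD117pos, and a fraction with low c-kit, CD117neg, for 4 CD117pos and 4 CD117neg arrays, paired by mouse. All arrays therefore share the fusion, the transduction and the transplantation, and no array of normal cells was used here. The mice are named by the ends of the array titles, _948, _951, _952 and _953, with the origin of their leukaemias (1 transduction or several) not given in the sources used here.

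Methylated H3K9 marks silent chromatin. Suv39h1 and Suv39h2 are the paralogous enzymes that trimethylate it at pericentromeric repeats, where HP1 proteins bind the mark. Ehmt1 (GLP) and Ehmt2 (G9a) act as a heterodimer that mono- and dimethylates H3K9 mainly in euchromatin. Setdb1 trimethylates H3K9 at retroelements, to which it is brought by Trim28 (KAP1), the corepressor of KRAB zinc finger proteins. Atrx, with its partner Daxx, deposits the histone variant H3.3 in heterochromatin. In mouse models with MLL fusions, c-kit-high cells are known to be richer in cells that can start the leukaemia again, and the contrast addresses how their transcripts differ.

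Kit, which encodes the sorted receptor, measured 751 ± 127 in CD117pos and 28.6 ± 9.73 in CD117neg arrays (SD, n = 4 each), and as the sorted marker it checks the labels only. The CD117pos array of mouse _951 stood apart, with a mean correlation of 0.929 to the other CD117pos arrays. The other CD117pos arrays had means of 0.966 to 0.967, and the CD117neg arrays 0.981 to 0.986 within their fraction. Of 6 myeloid identity genes, 1 was higher in CD117pos (Mpo, the myeloperoxidase gene), 4 were lower (Ptprc, Spi1, Cd33 and Csf3r) and 1 did not pass (Cebpa), with a median log2 difference of -1.11. Of 16 markers of mature myeloid cells, 14 were lower in CD117pos and 0 higher, with summed intensities of 11230 to 33140 in CD117pos and 80310 to 89580 in CD117neg arrays. Both fraction means lay below the array medians for 5 of 6 T cell, 3 of 3 NK cell and 5 of 5 erythroid markers. The same was true of 3 of 4 platelet, 2 of 4 mast cell and basophil, 3 of 5 stromal, 2 of 3 dendritic cell and 1 of 4 B cell markers. Of these markers 2 were called, the mast cell and basophil protease gene Mcpt8, which was higher in CD117pos, and the dendritic cell gene Itgax, which was lower. The mast cell and basophil markers summed to 277.6 to 1266 in CD117pos and 80.7 to 241.7 in CD117neg arrays. In such sorted bulk samples, fewer cells with a transcript and less RNA per cell cannot be told apart.

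Among the members, Suv39h2 alone had probe sets that passed the test, and it was higher in CD117pos cells. Differences below are CD117pos minus CD117neg on the log2(intensity + 16) scale, tested with limma over 45037 probe sets with the mouse as a block. Of the 18 member probe sets, 2 were higher and 0 lower at a Benjamini-Hochberg adjusted p under 0.05, both of them Suv39h2. Over all probe sets tested, 5.6% were higher and 10.9% lower. At an unadjusted p under 0.05, 4 of the 18 were higher and 0 lower, against 11.5% higher and 18.4% lower over all probe sets. The median difference was 0.14 over the 18 and -0.02 over all probe sets. With low intensities, this scale understates changes. Levels of different probe sets cannot be set against each other, so no order among the genes is given.

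The Suv39h2 promoter is shown because this is the member that changed. The sequence is RefSeq's for build GRCm38.p6, the 250 bases before the gene start on the minus strand, chr2:3474987-3475236. Capitals mark TTCCCGC, a form of the site that E2F factors bind, and TGACGTCA, the cyclic AMP response element.
Suv39h2: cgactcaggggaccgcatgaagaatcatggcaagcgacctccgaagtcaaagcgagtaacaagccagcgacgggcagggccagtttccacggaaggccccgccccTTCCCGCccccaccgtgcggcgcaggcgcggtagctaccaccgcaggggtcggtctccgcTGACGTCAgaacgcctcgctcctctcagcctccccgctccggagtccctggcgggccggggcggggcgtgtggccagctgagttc
Searched on both strands, TTCCCGC began 145 bases and TGACGTCA 85 bases before the start. In windows of 300 bases around gene starts, 4.6% of 32851 promoters held the first and 1.79% the second. Among the other members, Trim28 also held TTCCCGC, and TGACGTCA was found in none of their windows.

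Suv39h2 was measured by probe set 1433996_at (Entrez gene 64707) at 128.1, 129.4, 170.5 and 204.6 in the CD117pos arrays of mice _948, _951, _952 and _953, against 22.85, 69.28, 75.33 and 66.8 in their CD117neg arrays. Every CD117pos value lay above every CD117neg value. The mean was 158 ± 36.7 in CD117pos and 58.6 ± 24.1 in CD117neg arrays (SD, n = 4 each), a log2 difference of 1.28 ± 0.20 (SE) or 2.42-fold on that scale, with a 95% interval of 1.71-fold to 3.43-fold (limma, adjusted p = 0.0119). The second probe set, 1422979_at, read 51.55, 38.24, 67.66 and 99.74 in CD117pos, against 10.66, 20.17, 23.74 and 15.96 in CD117neg arrays, again without overlap. Every CD117neg value of this probe set lay below the median of its array (31.1 to 32.8). Its log2 difference was 1.21 ± 0.22, or 2.32-fold (limma, adjusted p = 0.0167). The third, 1436561_at, read 11.56, 105.5, 31.64 and 43.75 in CD117pos, against 5.32, 17.87, 12.82 and 16.29 in CD117neg arrays, so that the fractions overlapped. Its CD117pos array of mouse _951 was the highest and that of mouse _948 the lowest. With a difference of 0.96 ± 0.25, positive in 4 of 4 mice, it lay at the threshold without passing it (limma, adjusted p = 0.0516). It passed after quantile normalisation (0.0441), after centring on array medians (0.0315), with an intensity trend (0.0493), with a pseudocount of 1 (0.0434) and without mouse _951 (0.0302).

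The 2 Suv39h2 calls did not hold with 3 mice, except those that left out mouse _951. Calls over all probe sets moved likewise, from 16.5% with all mice to 5.22%, 6.7% and 5.68% without _948, _952 and _953. Without _951 the share was 20.3%. For 1433996_at the adjusted p was 0.0507 without mouse _948, 0.0533 without _952 and 0.0719 without _953, with differences of 1.07, 1.36 and 1.23. For 1422979_at it was 0.0898, 0.0731 and 0.0632, with differences of 1.17, 1.26 and 1.0. Without mouse _951 the differences were 1.45 and 1.42, with an adjusted p of 0.00649 and 0.00582.

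**Figure D1:**
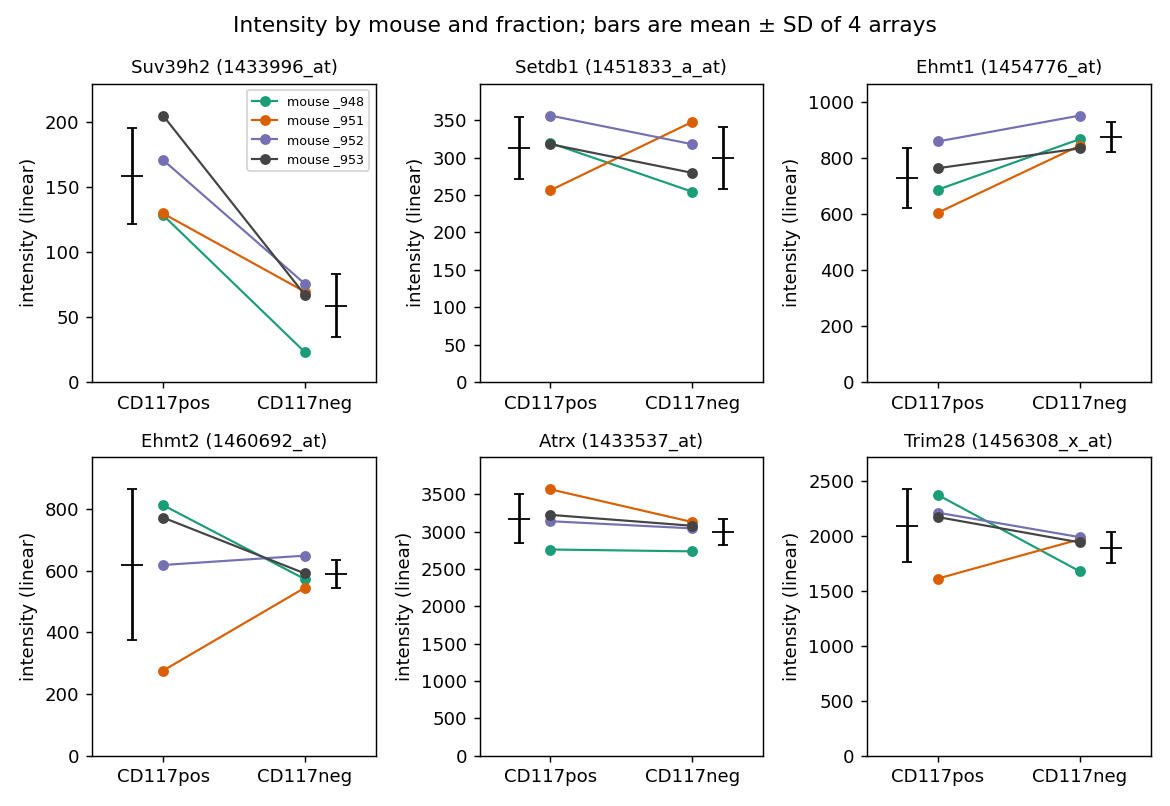
Linear intensity of the probe set with the highest mean for each of the 6 measured genes, CD117pos left and CD117neg right, with a line for each mouse and the mean ± SD of 4 arrays as bars. For Suv39h2 the 4 CD117pos values, 128.1 to 204.6, lie above the 4 CD117neg values, 22.85 to 75.33, while the fractions of the other genes overlap.

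Ehmt1 and Ehmt2, the partners of the heterodimer, did not pass the test. Ehmt1 (probe set 1454776_at, Entrez gene 77683) measured 686.7, 604.4, 859.1 and 763.5 in CD117pos, against 867.2, 844.1, 951.5 and 834.3 in CD117neg arrays of mice _948, _951, _952 and _953. It was lower in CD117pos in each of the 4 mice, while the fractions overlapped. The log2 difference was -0.27 ± 0.12, with a 95% interval of -0.57 to 0.03 (limma, adjusted p = 0.214). Ehmt2 (1460692_at, Entrez gene 110147) measured 813.3, 276.1, 619.1 and 773 in CD117pos, against 573.2, 545.2, 649.4 and 591.6 in CD117neg arrays. The CD117pos arrays ranged widely around the CD117neg arrays, with mouse _951 lowest and mice _948 and _953 above their CD117neg values. Its difference was -0.03 ± 0.26, with an interval of -0.66 to 0.59 (limma, adjusted p = 0.95), and it was 0.27 without mouse _951, 0.17 after quantile normalisation and 0.06 after centring. The second Ehmt2 probe set, 1426888_at, read 1 to 3.98 in CD117pos and 1.35 to 6.09 in CD117neg arrays, below the array medians throughout.

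Set against each other within mice, the Ehmt1 difference minus the Ehmt2 difference was -0.82, 0.47, -0.08 and -0.50 in mice _948, _951, _952 and _953. The mean was -0.23 ± 0.56 (SD, n = 4), negative in 3 mice and positive in mouse _951 (exact two-sided sign-flip permutation test, p = 0.375). With 4 mice this test cannot give a p below 0.125. The same comparison for Suv39h1 and Suv39h2 was not made, since Suv39h1 is not analysed here.

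Setdb1 gave different pictures by probe set. The brightest, 1451833_a_at (Entrez gene 84505), measured 319.5, 256.3, 356.2 and 317.9 in CD117pos, against 254.4, 347.8, 317.9 and 279.6 in CD117neg arrays. It was higher in CD117pos in mice _948, _952 and _953 and lower in mouse _951. The log2 difference was 0.06 ± 0.16, with an interval of -0.33 to 0.44 (limma, adjusted p = 0.859), and -0.03 without mouse _948. Probe set 1458215_at read 263 in the CD117pos array of mouse _951, against 33.1 to 38.2 in the other CD117pos and 32.6 to 50.5 in the CD117neg arrays. Its difference of 0.41 ± 0.45 (adjusted p = 0.62) rested on that array, and without mouse _951 it was -0.20. The dim 1416670_at likewise had its highest value, 31.8, in the CD117pos array of mouse _951, against 6 to 13.1 in the other CD117pos and 4.66 to 11.5 in the CD117neg arrays. Its means lay below the array medians in both fractions, at 15.3 ± 11.4 in CD117pos and 9.11 ± 3.14 in CD117neg arrays.

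Trim28, which recruits Setdb1, was represented by 1456308_x_at and 1415869_a_at (Entrez gene 21849), and the first can share sequence with other transcripts by its suffix. The first read 2377, 1614, 2215 and 2175 in CD117pos, against 1681, 1972, 1992 and 1944 in CD117neg arrays of mice _948, _951, _952 and _953. The second read 1584, 903.6, 1504 and 1472 in CD117pos, against 1108, 1294, 1288 and 1149 in CD117neg arrays. Both were higher in CD117pos in mice _948, _952 and _953 and lower in mouse _951, and the fractions overlapped. The log2 differences were 0.13 ± 0.16 and 0.14 ± 0.19, with intervals of -0.25 to 0.52 and -0.33 to 0.62 (limma, adjusted p = 0.652 and 0.692). Without mouse _951 neither passed, nor under any other setting tried, where the lowest adjusted p was 0.165 for the first and 0.0704 for the second.

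Atrx, whose protein works with Daxx, was measured by 7 probe sets (Entrez gene 22589), none of which passed. The brightest, 1433537_at, read 2762, 3568, 3141 and 3226 in CD117pos, against 2737, 3130, 3045 and 3080 in CD117neg arrays. It was higher in CD117pos in 4 of 4 mice by small amounts, with a difference of 0.08 ± 0.11 and an interval of -0.19 to 0.35 (limma, adjusted p = 0.708). As a ratio of intensity + 16, that interval runs from 0.874-fold to 1.28-fold. The dim probe set 1420948_s_at read 28.58, 32.06, 29.36 and 27.9 in CD117pos, against 21.12, 20.01, 19.62 and 19.08 in CD117neg arrays, without overlap. Its difference was 0.34 ± 0.11 (adjusted p = 0.0967), and it passed without the mouse block (0.041) and after quantile normalisation (0.0495). Its values lay near the array medians in CD117pos and below them in CD117neg arrays, and its suffix marks sequence that can be shared. The other 5 had differences from -0.16 (1453734_at) to 0.58 (1420946_at), of which 2 were positive and 3 negative. Probe set 1420946_at ranged from 152 to 246.4 in CD117pos and from 50.9 to 278.6 in CD117neg arrays, so the widest difference among the Atrx probe sets also had the widest interval, -0.15 to 1.31.

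**Figure D2:**
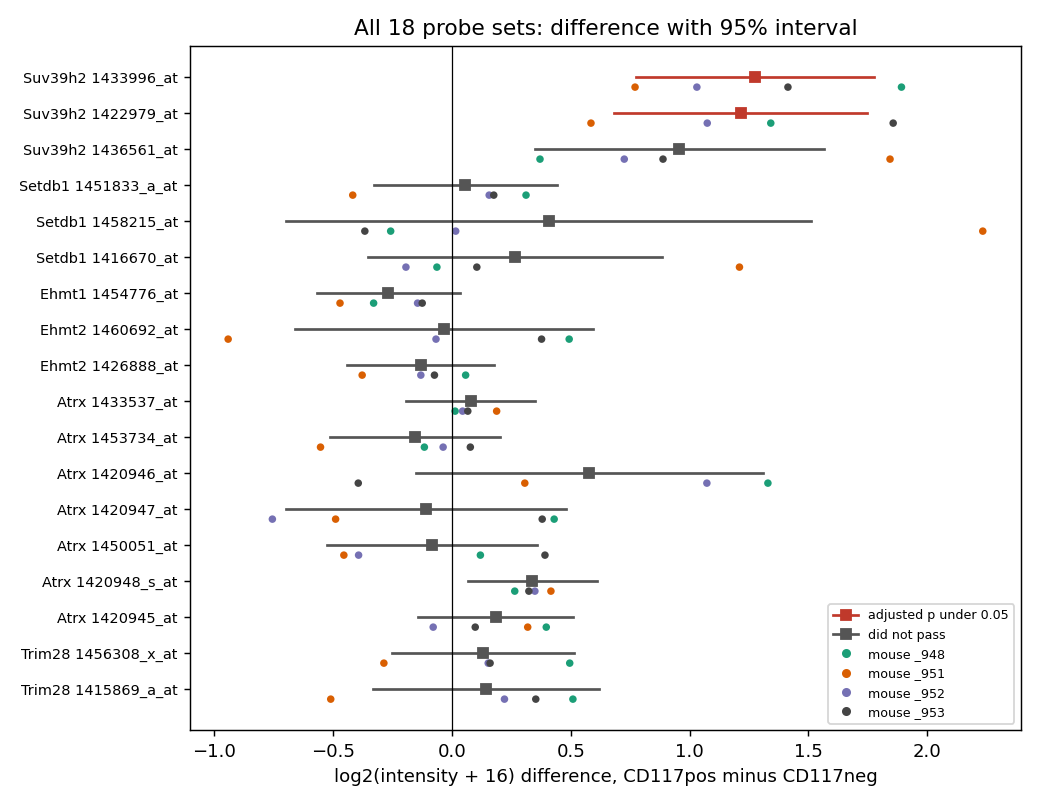
Differences of log2(intensity + 16), CD117pos minus CD117neg, for the 18 member probe sets; squares and lines are the limma estimate with its 95% interval and small points the 4 mice. The 2 red Suv39h2 probe sets, at 1.28 and 1.21, passed, and mouse _951 lies at an end of the 4 points in many rows.

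The fractions did not overlap for 3 of the 18 member probe sets (1433996_at, 1422979_at and 1420948_s_at), which is 16.7% against 23.1% of all probe sets. In the F-test of the mouse terms of the same limma fit, 0 of the 18 passed (lowest adjusted p = 0.737), and 0% of all probe sets did. Of the 18, 1 had an unadjusted p under 0.05, the third Suv39h2 probe set, as had 6.66% of all probe sets. The CD117pos array of mouse _951 was the lowest of the 4 CD117pos arrays for 9 of the 18 probe sets and the highest for 6. That is 83.3% at an extreme, against 67.5% over all probe sets. It was lowest for both Trim28 and both Ehmt2 probe sets, for Ehmt1 and for the brightest Setdb1 probe set, and highest for the brightest Atrx probe set.

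The likeness of other genes to Suv39h2 was read from its brightest probe set only. Among 8534 other genes with a mean intensity of at least 100, Pearson's correlation of log2 values with 1433996_at over the 8 arrays was highest for Cdc20 (0.994), the activator of the anaphase-promoting complex. Kif4, a chromosome-bound kinesin gene, and Ect2, a gene needed for cytokinesis, followed, both at 0.993. The 8 points come from 4 mice and 2 fractions, so each correlation mixes the difference between fractions with that between mice. Cdc20 measured 3680 ± 453 in CD117pos and 2292 ± 462 in CD117neg arrays, Kif4 450 ± 57.2 in CD117pos and 246 ± 59.6 in CD117neg arrays, and Ect2 1836 ± 297 in CD117pos and 935 ± 254 in CD117neg arrays. Since these genes were selected for following Suv39h2 over the same arrays, these values are a description, with no test.

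Of 6 letter strings searched on both strands in the 300-base promoter windows, TTTGAA, the letters of the cell cycle homology region, was in the windows of all 4 genes and in 17.9% of all promoters. The strings were chosen after the genes were known. Cdc20, Kif4 and Ect2 held neither TTCCCGC nor TGACGTCA, and they held CCAAT (37.4% of all promoters), which the Suv39h2 window lacked. The other E2F forms, TTTCCCGC (1.07%), which contains TTCCCGC, and TTTGGCGC (0.514%), were in no window of the 4 genes. TTTGAA began at base 20 after the start in Suv39h2 and in Kif4, 18 bases before it in Cdc20, and at base 40 after and 114 bases before the start in 1 of the 2 Ect2 windows. The Suv39h2 stretch is chr2:3474952-3474977 of GRCm38.p6, minus strand, with these letters in capitals.
Suv39h2: accgcgccagTTTGAAtgaaagctcc
No window of the other members held TTTGAA.

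Markers of proliferation that passed the test were, like Suv39h2, higher in CD117pos. Of 27 measured markers, 8 were higher in CD117pos (29.6%) and 0 lower. Of all genes, 7.53% were higher and 12.9% lower, or 20.5% in either direction. These markers are mostly bright, and bright probe sets passed more often. With a mean intensity of at least 100, 10 of 26 markers were higher. Of all probe sets in that setting, 16.3% were higher and 44.1% were called in either direction. The 27 differences were all positive, from 0.03 to 1.23, with a median of 0.42. The 8 were the kinase genes Aurkb, Cdk1 and Plk1, the nucleotide synthesis genes Tk1 and Rrm1 and the replication genes Cdc6, Gins1 and Gins2. Their differences lay between 0.62 (Gins1) and 1.23 (Aurkb). The median of the 27 was 0.83, 0.02, 0.42 and 0.54 in mice _948, _951, _952 and _953, where Suv39h2 (1433996_at) differed by 1.89, 0.77, 1.03 and 1.41. Both had their widest value in mouse _948 and their narrowest in _951. Probe set 1422979_at differed by 1.34, 0.58, 1.07 and 1.86 in these mice, also narrowest in _951 but widest in _953. The third, 1436561_at, differed by 0.37, 1.84, 0.72 and 0.89, narrowest in _948 and widest in _951. Without mouse _951, 15 of the markers were higher, while 1 was without _948 or _953 and 4 without _952. After quantile normalisation 13 were higher. These counts moved in the same direction as the calls over all probe sets. In either direction, 16.5% of all probe sets were called with all mice and 20.3% without _951. The share was 5.22%, 6.7% and 5.68% without _948, _952 and _953. After quantile normalisation 8.76% of all probe sets were higher, against 5.6% as reported. The part of proliferation in the Suv39h2 difference, and that of the mature myeloid markers, was not tested.

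**Figure D3:**
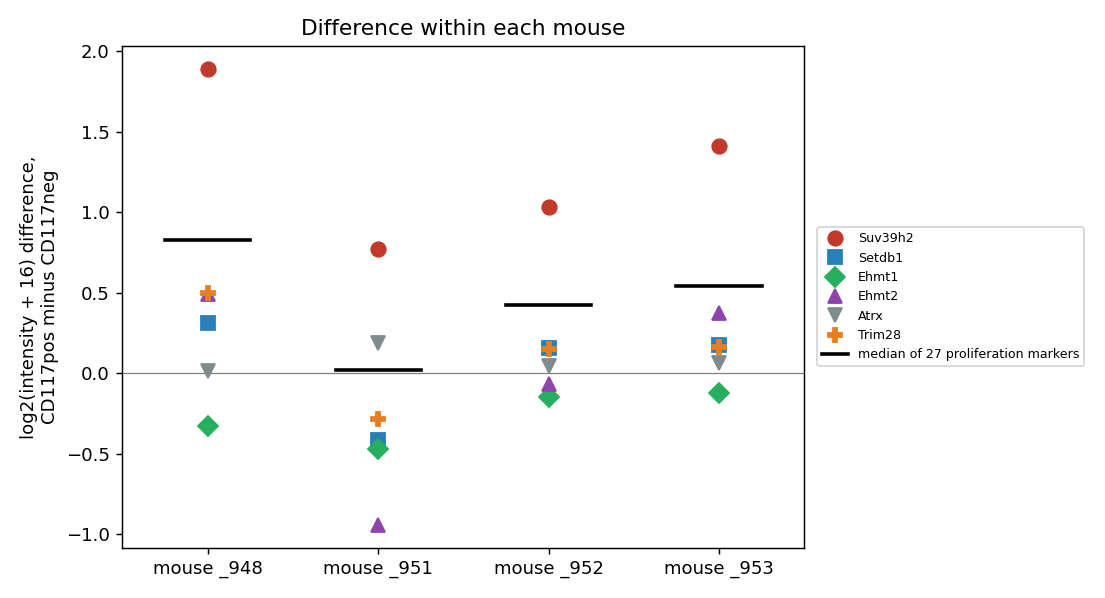
Difference of log2(intensity + 16) within each mouse, CD117pos minus CD117neg, for the brightest probe set of each measured gene, with a bar for the median of 27 proliferation markers. Suv39h2 is the highest point in each of the 4 mice, from 0.77 to 1.89, and Setdb1, Ehmt2 and Trim28 lie above their mouse _951 values in the other 3 mice.

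Genes that work with the members were read from 8 lists, taking for each gene the probe set of highest mean. Of 92 measured genes, 7 were higher and 15 lower in CD117pos, or 7.61% and 16.3%, against 7.53% and 12.9% of all 18193 named genes. The shares thus lay near those of all genes. The 15 include Kmt5a, whose probe sets disagree. The median difference was 0.07 over the 92 genes and -0.01 over all genes. Without mouse _951, 12 were higher and 16 lower, and without _948, _952 or _953, 0 were higher and 4 or 5 lower. Of all probe sets, 16.5% were called with all mice and 20.3% without _951. The share was 5.22%, 6.7% and 5.68% without _948, _952 and _953. With a pseudocount of 1, 0 were higher and 6 lower, and after quantile normalisation 11 and 11. In these 2 settings 9.02% and 17% of all probe sets were called.

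Of 8 genes for readers of the mark, 2 were higher, 1 was lower and 5 did not pass, with a median difference of 0.16. Without mouse _948, _952 or _953, or with a pseudocount of 1, 0 were higher. Cbx5, which encodes HP1 alpha, measured 833 ± 182 in CD117pos and 391.7 ± 52.0 in CD117neg arrays, a difference of 1.04 ± 0.18 (limma, adjusted p = 0.0155). Uhrf1, whose protein reads methylated H3K9 and hemimethylated DNA in replicating cells, measured 1833 ± 369 in CD117pos and 1007 ± 182 in CD117neg arrays (0.85 ± 0.19). The other Uhrf1 probe set differed by 0.97 and did not pass. Cdyl, a chromodomain corepressor gene, was lower, at 311 ± 27.5 in CD117pos and 632 ± 70.8 in CD117neg arrays (-0.98 ± 0.13), and of its other 2 probe sets, at -0.54 and 0.29, the first passed too. Cbx1, the HP1 beta gene, differed by 0.19 ± 0.11 and did not pass.

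Of 11 H3K9 demethylase genes, 2 were lower in CD117pos and 0 higher, with a median difference of -0.25. Kdm7a, a PHF8-family demethylase gene, measured 98.3 ± 55.9 in CD117pos and 1505 ± 521 in CD117neg arrays, a difference of -3.79 ± 0.30 (limma, adjusted p = 0.00182). Its other 4 probe sets ranged from -3.51 to 0.26, and 2 of them passed in the same direction. Jmjd1c, of the Kdm3 family, measured 1059 ± 290 in CD117pos and 1849 ± 126 in CD117neg arrays (-0.83 ± 0.20). Kdm1a, the LSD1 gene, differed by 0.004 ± 0.12 and did not pass. Of 4 further H3K9 methyltransferase genes, Prdm2 (RIZ1) was lower, at 468 ± 63.1 in CD117pos and 1008 ± 125 in CD117neg arrays (-1.08 ± 0.13), while its other 2 probe sets differed by -0.18 and -0.16. Setdb2, Prdm16 and Mecom did not pass.

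Of 14 partners of Trim28 and Setdb1, 1 was higher and 3 lower, with a median difference of -0.34. Atf7ip, whose protein stabilises Setdb1 in the nucleus, measured 745 ± 113 in CD117pos and 1388 ± 235 in CD117neg arrays, a difference of -0.88 ± 0.17 (limma, adjusted p = 0.0224). Its other 2 probe sets differed by -0.96 and -0.12, and 1 of them passed. Resf1, a regulator of Setdb1-dependent silencing, differed by -1.16 ± 0.16. Chd4, the remodeller of the NuRD complex, differed by -0.45 ± 0.11 and was the closest of the 3 to the threshold (adjusted p = 0.0487). The deacetylase gene Hdac2 was higher, at 1158 ± 134 in CD117pos and 709 ± 43.9 in CD117neg arrays (0.69 ± 0.14). Its other 2 probe sets differed by 0.23 and 1.21, and 1 of them passed. Of 35 measured KRAB zinc finger genes, which encode the DNA-binding proteins that recruit Trim28, 4 were higher and 2 lower, with a median of 0.15, and 11 lay below the array medians in both fractions. Rsl1, Zfp74, Zfp759 and Zfp94 were higher by 0.85, 0.78, 0.68 and 0.55. Zfp109 differed by -0.90, and Zfp809, known for silencing retroviral DNA in mouse cells, by -0.64. Without mouse _951, 8 KRAB genes were higher and 2 lower, and 0 were higher or lower without _948, _952 or _953 and with a pseudocount of 1. In each of these settings without KRAB calls, fewer of all probe sets were called too.

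Of 9 partners of Atrx and other H3 chaperone genes, 3 were lower and 0 higher, with a median difference of -0.13. Ubn1, a subunit of the HIRA complex that deposits H3.3, measured 592 ± 62.1 in CD117pos and 1001 ± 71.2 in CD117neg arrays (-0.75 ± 0.13), though its other probe set differed by 0.10. H3f3a and H3f3b, the H3.3 genes, differed by -1.33 ± 0.22 and -0.83 ± 0.13, each on a single named probe set. Their near-identical copies make these values uncertain. Daxx differed by -0.23 ± 0.13 and did not pass. Of 4 partners of Ehmt1 and Ehmt2, 0 passed and 1 had an unadjusted p under 0.05 (limma). This was Wiz, which had the smallest p among them (0.47 ± 0.15, adjusted p = 0.0905).

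Among 7 genes of Suv39h partners, DNA methylation and H4K20 methylation, 3 were lower and 0 higher by their brightest probe sets, with a median of -0.05, and 1 of the 3 (Kmt5a) has probe sets that disagree. Rb1, the retinoblastoma gene, measured 784 ± 272 in CD117pos and 1436 ± 127 in CD117neg arrays, a difference of -0.92 ± 0.19 (limma, adjusted p = 0.0252), while its other probe set differed by -0.23. Kmt5b, which encodes an H4K20 methyltransferase that follows H3K9 methylation, differed by -0.88 ± 0.15. Its other 4 probe sets ranged from -1.10 to 0.06, and 2 of them passed in the same direction. Kmt5a, the H4K20 monomethyltransferase gene, differed by -0.69 ± 0.15 in its brightest probe set. Of its other 3 probe sets 1 passed in the same and 2 in the opposite direction, so its direction is not settled. Dnmt1, the maintenance DNA methyltransferase gene, differed by 0.20 ± 0.14 and did not pass.

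**Figure D4:**
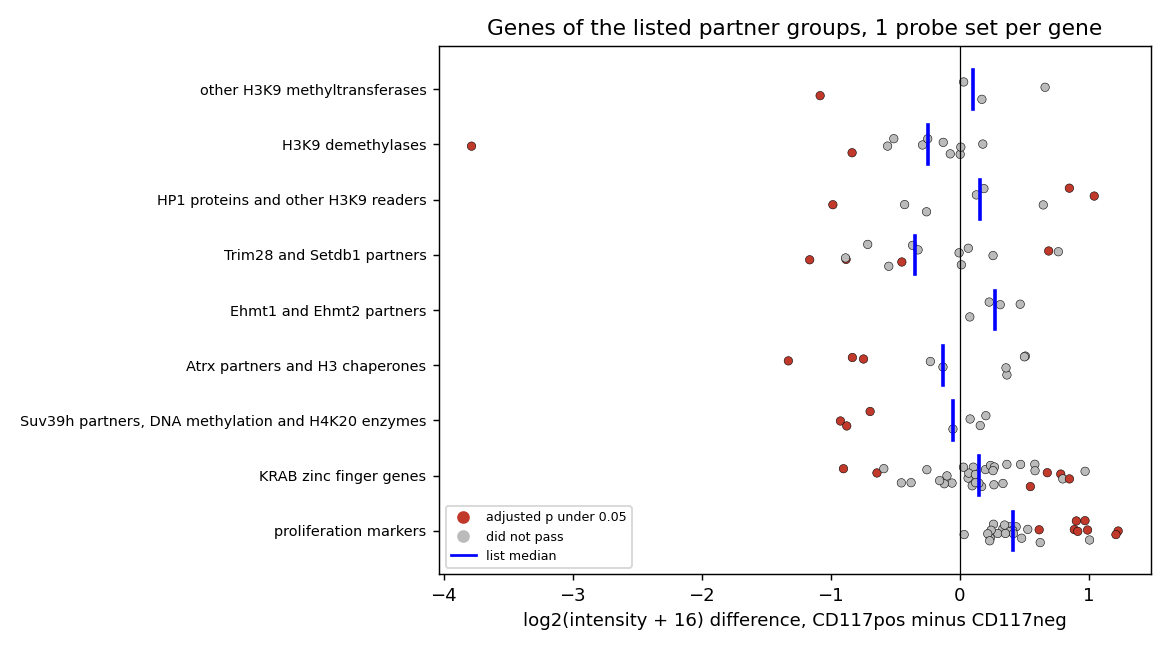
Difference of log2(intensity + 16), CD117pos minus CD117neg, for genes of 8 partner lists and for 27 proliferation markers, 1 point a gene, red where adjusted p was under 0.05 and with a blue bar at the list median. Kdm7a is the point at -3.79, and list medians run from -0.34 to 0.42.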

How the data were processed

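RNA of the 8 sorted fractions was amplified in 2 cycles, labelled with biotin and hybridised to 1-colour Affymetrix arrays, per the labels' protocols. The authors deposited linear intensities of 45101 probe sets for every array, with the summary software, the scaling and the genome build not given in the sources used here. Between 841 and 898 values per array were exactly 1, array medians were 27.5 to 32.8, and detection calls were not used here. Arrays have no read depth, and their number limits the precision.

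From these values log2(intensity + 16) was computed and 45037 probe sets, without 64 controls, were fitted with limma 3.58.1 in R 4.3.3 (lmFit, eBayes, two-sided, mouse as a block), adjusted by Benjamini-Hochberg at 0.05. Names came from the platform annotation, in which 34945 probe sets had 1 symbol, 932 several and 9160 none listed. The block follows from the design text. Deviations from the fraction mean correlated at 0.21, 0.22, 0.27 and 0.12 within mice _948, _951, _952 and _953, against at most 0.11 between mice. The fit was tested on simulated data. The members and lists were chosen with earlier results of these data known. Named genes were the members, Kit, each list gene past the threshold (or that with the smallest p) and the 3 genes most correlated with each called member, and further list genes were named after their values were seen. Alternatives were the pseudocount (1, 64), scaling, an intensity filter (mean of at least 100), a trend, 1 or averaged probe sets per gene, leaving out shared-sequence probe sets, no block, and leaving out mice. Plots were made in Python 3.11.15 using matplotlib 3.10.9.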

Additional observations from a re-analysis of the deposited data

Results flagged for a closer look

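In 4 of the 36 groups of 4 arrays (18 probe sets in 2 fractions), 1 array lay far from the other 3 by Dixon's criterion, which chance alone meets in about 1 of 20 groups. The Setdb1 probe set 1458215_at read 263 in the CD117pos array of mouse _951, against 33.1 to 38.2 in the other CD117pos arrays. The Trim28 probe set 1415869_a_at read 903.6 in the same array, against 1472 to 1584 in the others. In the CD117neg array of mouse _948, Suv39h2 (1433996_at) read 22.85, against 66.8 to 75.33, and Trim28 (1456308_x_at) read 1681, against 1944 to 1992 in the other CD117neg arrays. Without mouse _948 the Suv39h2 difference was 1.07 on the log2 scale, against 1.28 with all mice.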

How the results depend on the processing

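Of 231 values of member probe sets under alternatives, 202 kept their direction and side of the threshold, 7 passed where they had not, 6 no longer passed and 16 changed sign. The 6 lost calls were both Suv39h2 probe sets without mouse _948, _952 or _953. With these mice left out in turn, 5.22% to 6.7% of all probe sets were called, against 16.5% as reported. Member probe sets higher in CD117pos numbered 2 as reported, 0 to 3 with a mouse left out, 4 after quantile normalisation and 3 without the replicate block. They numbered 1 both with a mean intensity of at least 100 and with 1 probe set per gene, where only 11 and 6 probe sets were tested. Over all probe sets tested, 5.6% were higher as reported, 8.76% after quantile normalisation and 5.88% without the block. The share was 16.3% with a mean intensity of at least 100 and 8.27% with 1 probe set per gene. The block changed no call among Suv39h2 probe sets. No member probe set was lower under any setting. Genes of the 8 partner lists numbered 7 higher and 15 lower as reported. They were 0 to 12 higher and 4 to 16 lower with a mouse left out, 0 and 6 with a pseudocount of 1, and 11 higher after quantile normalisation. With neither the replicate block nor the _951 CD117pos array, 12 were higher. Of all probe sets, 8.66% were higher in that setting and 2.52% with a pseudocount of 1. The cause of these moves was not tested. Sign changes were all in values that did not pass. After quantile normalisation they were Ehmt2 1460692_at (0.17) and Atrx 1453734_at (0.0016), 1420947_at (0.0453) and 1450051_at (0.0496), and after centring Ehmt2 1460692_at (0.0584) and Atrx 1450051_at (0.0089). With a mouse left out in turn, Setdb1 1451833_a_at ran from -0.0285 to 0.2146, 1458215_at from -0.203 to 0.6636 and 1416670_at from -0.0509 to 0.4169, below 0 without mouse _948 for the first and _951 for the others. Ehmt2 1460692_at ran from -0.2108 to 0.2676, above 0 without mouse _951, and Atrx 1420947_at from -0.2886 to 0.1066 and 1450051_at from -0.2428 to 0.0392, above 0 without mouse _951 or _952. With neither that array nor the replicate block, Setdb1 1458215_at was -0.20 and Ehmt2 1460692_at 0.30. Among all calls, 34% were higher as deposited, 51.4% after quantile normalisation and 45.1% after centring, which moved the median of all probe sets to 0.04 and 0.08. Signals near or below the array medians limit the third Suv39h2, the dim Setdb1 and Ehmt2 and 2 Atrx probe sets. The CD117neg values of 1422979_at, a Suv39h2 probe set that passed, also lay below the medians of their arrays.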
